A study of Homo sapiens with 12 samples.

Results

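The proteasome is the barrel-shaped protease that degrades ubiquitin-tagged proteins. Its genes were taken as the rows of both count tables whose symbol is PSMA to PSMG followed by a number, which gave 48 of 60648 genes. They encode 14 subunits of the constitutive core, 17 of the regulatory particle, 5 interferon-inducible subunits, 7 assembly chaperones, 3 other caps or regulators and 2 tissue-restricted core subunits. Among the 48 genes, 46 passed the low-count filter of each fit. The other 2 are the tissue-restricted genes. PSMA8, the testis form of an alpha subunit, had 0 counts in all 12 libraries, where 3 counts correspond to between 0.0795 and 0.197 CPM (counts per M counts of a library, after TMM scaling). PSMB11, the thymus form of a catalytic subunit, had at most 2 counts in a library.

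RNA was sequenced from the acute myeloid leukemia lines MOLM13 and OCIAML5 (both human) after lentiviral delivery of short hairpins. The groups were MOLM13 with a hairpin against PSPC1, which binds RNA in nuclear paraspeckles, and MOLM13 with a control hairpin, then OCIAML5 with the PSPC1 hairpin and OCIAML5 with a control hairpin. A separate experiment held OCIAML5 with a hairpin against PU.1, the myeloid transcription factor encoded by SPI1, and OCIAML5 with its own control hairpin libraries. Each group had 2 libraries. All cells were transduced and then selected with puromycin or sorted for GFP, controls included, and OCIAML5 medium contained 10 ng/mL GM-CSF throughout. Whether the paired libraries of a group are separate cultures is not in the labels, so a p-value here reflects library-to-library spread alone, possibly technical in origin.

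In a working proteasome, rings of alpha subunits (PSMA genes) gate a chamber formed by rings of beta subunits (PSMB genes), of which PSMB5, PSMB6 and PSMB7 cut the substrate. The regulatory particle has a base with a ring of ATPases (PSMC genes) that unfolds substrates, and non-ATPase subunits (most PSMD genes) that bind and remove ubiquitin. Interferon replaces the cutting subunits by PSMB8, PSMB9 and PSMB10 to form the immunoproteasome, and raises PSME1 and PSME2, the subunits of the PA28 activator. These inducible subunits are known for shaping peptides for presentation, and blood cells carry them without added interferon.

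Both knockdowns reached their target. PSPC1 stood at 27.1 and 27.7 CPM in MOLM13 knockdown libraries, against 130 and 135 CPM in their controls, and at 18.9 and 19.2 CPM in OCIAML5 knockdown libraries, against 99.1 and 98.8 CPM. SPI1 stood at 47.5 and 46.2 CPM after PU.1 knockdown, against 227 and 204 CPM in its controls. PSPC1 also fell after PU.1 knockdown, to 59.8 and 58.2 CPM, against 106 and 113 CPM in controls, for a log2 change of -0.89 ± 0.055 (SE; adjusted p = 2.07e-23). Changes common to the PU.1 and PSPC1 knockdowns thus come from cells that all have less PSPC1 RNA, and its part in them was not tested. Libraries held 15.4 to 22.8 M counts in the PSPC1 experiment and 26.3 to 39.7 M in the PU.1 experiment. CPM values were scaled within each experiment, so levels are not compared across the 2 sets of OCIAML5 controls. In bulk RNA, fewer cells of a type and less RNA per cell cannot be told apart. As a check of the labelled cell type, 7 of 8 myeloid markers reached 1 CPM in each line, whereas CD14 did not. Their summed level ran from 995 to 1130 CPM in MOLM13 and from 290 to 546 CPM in OCIAML5. The 7 lymphoid markers summed to at most 28.2 CPM, and the 6 erythroid and epithelial markers to at most 2.24 CPM. The T cell marker CD3E and the B cell marker MS4A1 stayed under 1 CPM in every library.

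Proteasome genes spanned a wide range of levels per length. In the MOLM13 controls the 46 genes ran from 0.525 CPM per kb for PSMD9 to 88.4 CPM per kb for PSMB1, with a median of 21.3. In the OCIAML5 controls of the same experiment they ran from 0.444 CPM per kb for PSMD9 to 117 CPM per kb for PSMB4, a structural beta subunit, with a median of 22.1. With all genes counted, the regulatory particle had the narrowest range of the 3 main classes. Its highest gene was 7.21 times its lowest in MOLM13 controls and 7.64 times in OCIAML5 controls. Its medians were 23.9 and 28.6 CPM per kb in these controls. The lowest gene of the class in both was PSMC1, at 8.16 and 8.57 CPM per kb. Exons of NRDE2 on the opposite strand cover 75.8% of the PSMC1 exon bases and 47.7% of its coding bases. No source used here gives the strand setting, so the PSMC1 level, and with it this range, is uncertain. The core ranges of 129 and 142 times rest on alpha genes whose counts are uncertain, as described below. The rank of the regulatory particle against the core therefore depends on those genes.

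The constitutive core looked uneven, although its subunits enter the particle in equal numbers. PSMA2 had the lowest core level at 0.687 CPM per kb in MOLM13 controls and 0.825 CPM per kb in OCIAML5 controls. PSMA7, another subunit of the same ring, was 103 times higher in both. For 3 alpha genes the annotation bears on the count. Exons of another same-strand gene cover 97.1% of the coding bases of PSMA2, 88.6% of PSMA1 and 70.4% of PSMA6. For PSMD9 the share is 58.7% and for PSMB10 it is 58.3%. Over all 12 libraries the same-strand gene across PSMA1 had 0 counts, the one across PSMA2 had 1 and AL121594.1 across PSMA6 had 32. Across PSMD9, AC069503.2 had 8 counts and WDR66 had 221, and across PSMB10, AC040162.1 had 743. No source used here says how reads in shared exons were counted, so the levels of these 5 genes are uncertain, and the part of the overlap in them was not tested.

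**Figure D1:**
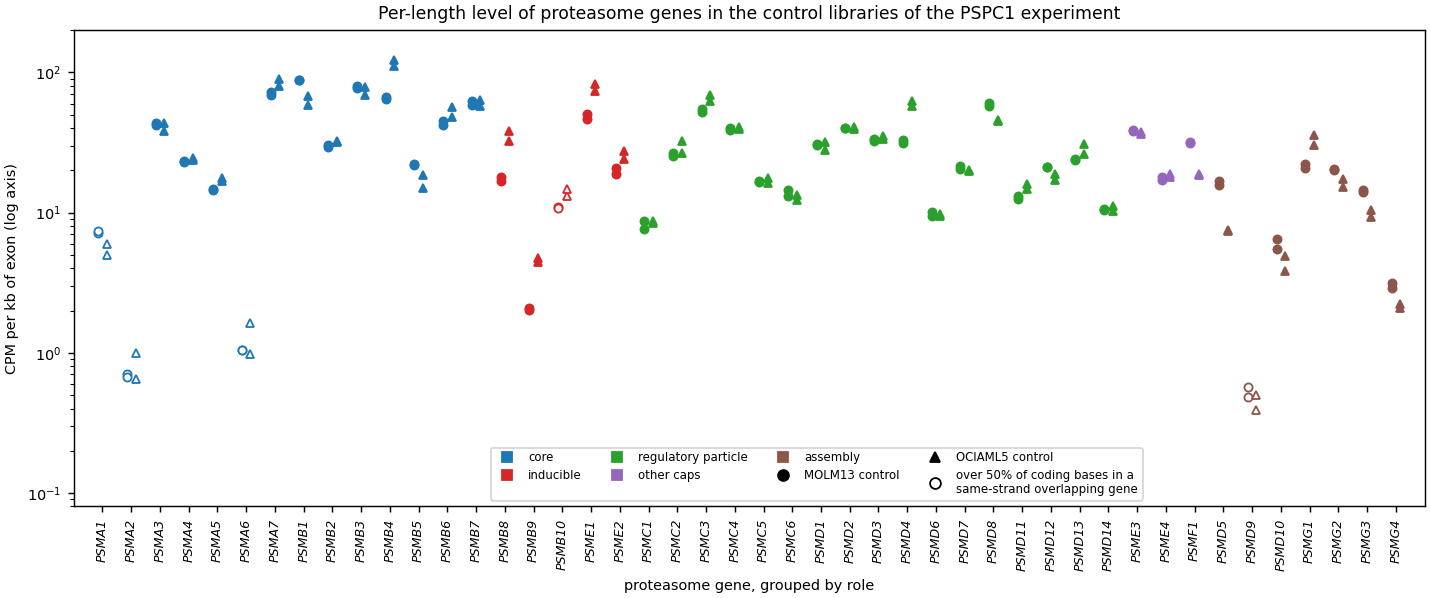
Level of each tested proteasome gene in CPM per kb of exon (log axis) in the control libraries of the PSPC1 experiment, 1 point per library, coloured by role (circles MOLM13, triangles OCIAML5). Open symbols mark the 5 genes with over 50% of their coding bases inside a same-strand overlapping gene; PSMA2, PSMA6 and PSMD9 lie near or under 1 CPM per kb.

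Across the 3 knockdowns, PSMB5 and PSMD10 were the only proteasome genes called higher each time. PSMB5 encodes the subunit with chymotrypsin-like activity, the main target of proteasome inhibitor drugs. PSMD10, or gankyrin, is a chaperone for the ATPase ring of the regulatory particle. Another 6 were called lower each time, namely PSMA4, PSMB8, PSMC3, PSME1, PSME2 and the chaperone gene PSMG1. PSMA2 and PSMB7 passed the test in none. How many of all genes tested were called 1 way in all 3 knockdowns was not counted, so these numbers have no background beside them. In single knockdowns 27.5% to 29.6% of all genes tested were called higher and 28.4% to 30.9% lower. For PSMA4 and PSMC3 the OCIAML5 PSPC1 call was the weak one. It was lost without the first knockdown library (adjusted p = 0.141 for PSMA4 and 0.206 for PSMC3), for PSMA4 also without the second (adjusted p = 0.0746) or the first control (0.143), and for PSMC3 without the second control (0.343). A call means an adjusted p under 0.05 in edgeR's quasi-likelihood test with Benjamini-Hochberg adjustment over all genes tested.

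PSMB5 (chromosome 14 of GRCh38, 23016543 to 23035230) had a level of 69.5 and 70.4 CPM in MOLM13 PSPC1-knockdown libraries, against 38.9 and 38.5 CPM in controls. In OCIAML5 it stood at 78.2 and 82.9 CPM after PSPC1 knockdown, against 26.5 and 32.6 CPM, and at 87.2 and 90.1 CPM with the PU.1 hairpin, against 46.5 and 47.7 CPM. Every knockdown library lay above every control of its experiment. The log2 fold changes were 0.85 ± 0.080 in MOLM13 (SE; adjusted p = 3.22e-13), 1.45 ± 0.082 in OCIAML5 (adjusted p = 4.78e-21) and 0.91 ± 0.058 after PU.1 knockdown (adjusted p = 1.53e-22).

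The other cutting subunits of the constitutive core did not move with PSMB5. PSMB6 stood at 61.8 and 66.0 CPM after PSPC1 knockdown in MOLM13, against 61.2 and 64.9 CPM, and at 79.2 and 77.7 CPM in OCIAML5, against 69.2 and 81.9 CPM. These groups overlapped, with log2 fold changes of 0.02 ± 0.073 and 0.06 ± 0.070 (SE). After PU.1 knockdown PSMB6 fell to 69.6 and 70.7 CPM, against 95.7 and 101 CPM in controls, for a log2 change of -0.49 ± 0.054 (SE; adjusted p = 2.57e-12). PSMB7 had log2 fold changes of -0.10 ± 0.060, -0.03 ± 0.059 and -0.09 ± 0.048 (SE) in MOLM13, OCIAML5 and the PU.1 experiment, and passed the test in none of them. Per length, PSMB5 was the lowest of the 3 in the controls, at 21.9 CPM per kb in MOLM13 and 16.7 CPM per kb in OCIAML5, beside 43.6 and 52.2 for PSMB6. After PSPC1 knockdown it stood at 39.6 and 45.6 CPM per kb in these lines, beside 44.1 and 54.2 for PSMB6.

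PSMD10 (chromosome X, 108084207 to 108091618) behaved like PSMB5 at a lower level. It stood at 29.1 and 30.8 CPM in MOLM13 PSPC1-knockdown libraries, against 13.6 and 16.0 CPM, and at 28.2 and 27.2 CPM in OCIAML5 PSPC1-knockdown libraries, against 9.46 and 12.01 CPM. After PU.1 knockdown it stood at 26.2 and 23.7 CPM, against 12 and 13.4 CPM in controls. The groups did not overlap in any experiment, and the log2 fold changes were 1.03 ± 0.12, 1.37 ± 0.13 and 0.97 ± 0.098 (SE; adjusted p = 5.31e-10, 4.19e-13 and 7.24e-14 in MOLM13, OCIAML5 and the PU.1 experiment).

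The assembly chaperones moved apart from each other. PSMG1, which pairs with PSMG2 to build the alpha ring, stood at 21.0 and 20.5 CPM after PSPC1 knockdown in MOLM13, against 55.6 and 52.2 CPM in controls. In OCIAML5 it stood at 41.6 and 44.3 CPM after PSPC1 knockdown, against 76.6 and 90.2 CPM, and at 52.0 and 50.5 CPM with the PU.1 hairpin, against 79.2 and 82.1 CPM. It fell in all 3, with log2 fold changes of -1.38 ± 0.091, -0.96 ± 0.079 and -0.66 ± 0.059 (SE; adjusted p = 1.62e-18, 5.55e-15 and 7.26e-16). Its partner PSMG2 fell by less in MOLM13, with a log2 fold change of -0.22 ± 0.074 (SE), and did not pass the test in OCIAML5. The MOLM13 call was lost with DESeq2 (adjusted p = 0.0573) and without the second knockdown library (adjusted p = 0.0547).

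PSMG3, which pairs with PSMG4, stood at 12.3 and 15.1 CPM in MOLM13 PSPC1-knockdown libraries, against 28.3 and 27.3 CPM, for a log2 change of -1.01 ± 0.13 (SE; adjusted p = 1.51e-09). In OCIAML5 its log2 fold change was -0.19 ± 0.13 after PSPC1 knockdown, which did not pass, and -0.34 ± 0.084 after PU.1 knockdown (adjusted p = 0.000417, and 0.0501 with library size alone). PSMD9, a chaperone of the ATPase ring, stood at 6.22 and 7.56 CPM after PSPC1 knockdown in OCIAML5, against 3.42 and 4.36 CPM. Its log2 fold change there was 0.82 ± 0.24 (SE; adjusted p = 0.00301), which was 0.65 (adjusted p = 0.0553) without the first OCIAML5 control library. It is one of the genes with uncertain counts.

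**Figure D2:**
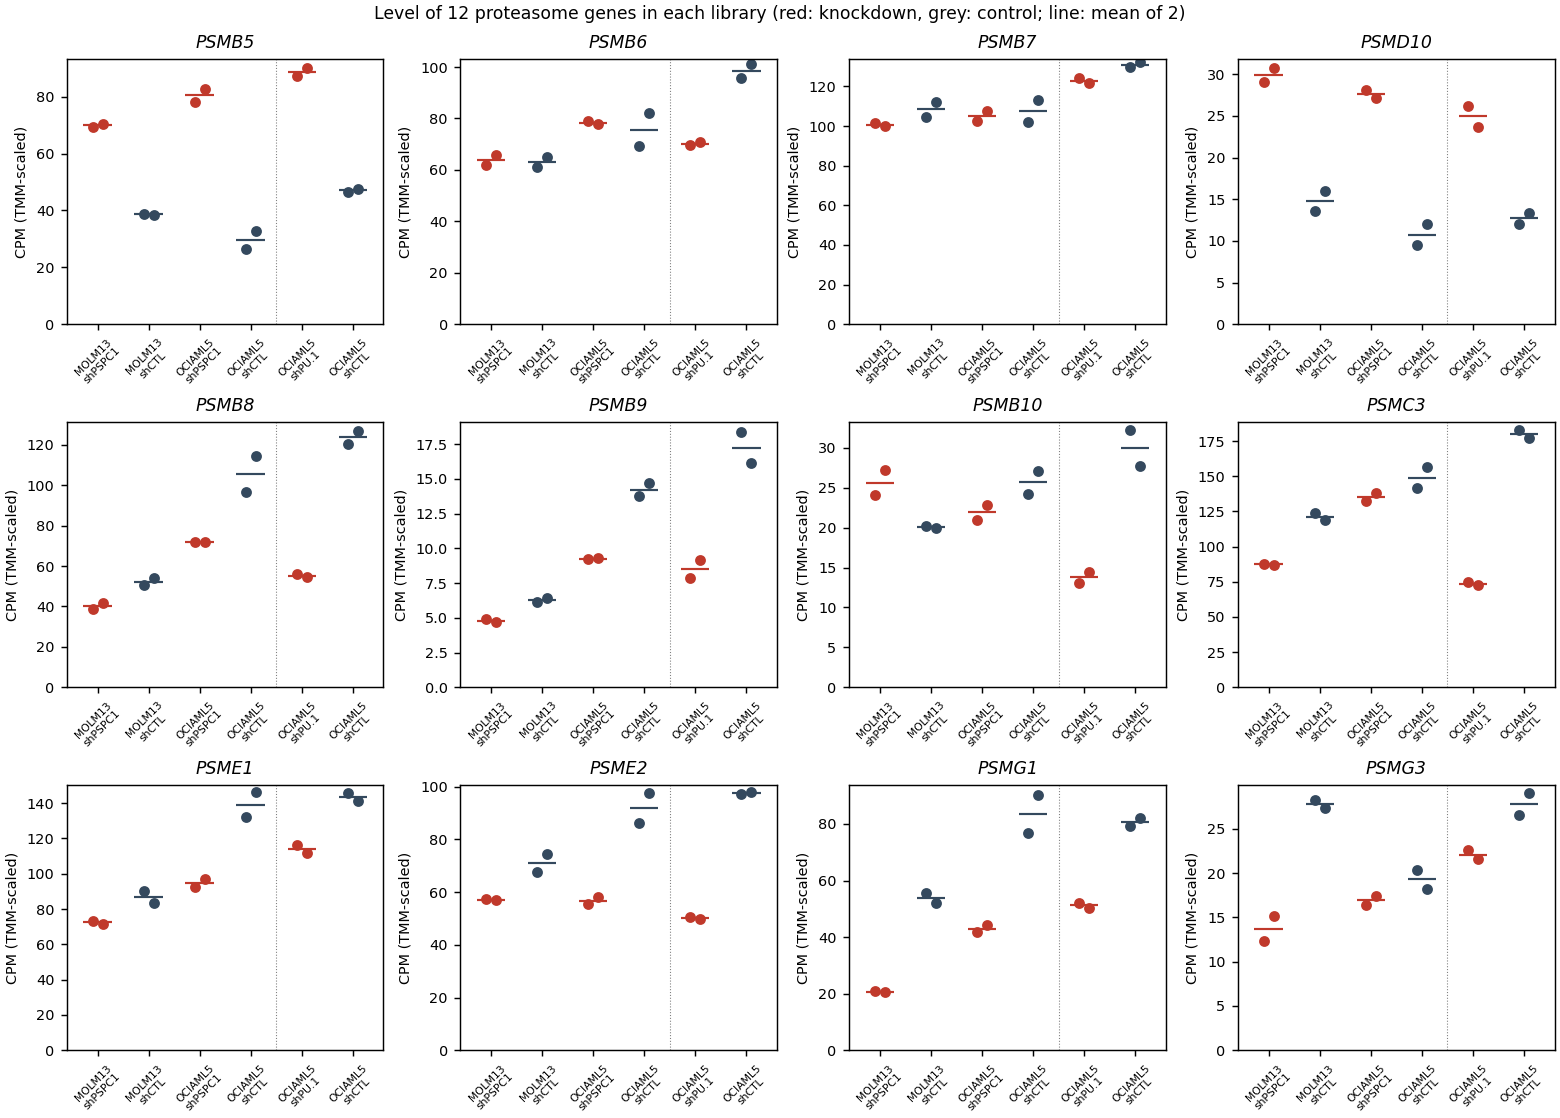
CPM of 12 proteasome genes in each library (points; the line is the mean of 2), knockdowns in red left of their controls in grey; the dotted line separates the PSPC1 and PU.1 experiments, which were scaled separately. PSMB5 and PSMD10 lie above their controls and PSMB8, PSME1, PSME2, PSMC3 and PSMG1 below them in all 3 knockdowns, whereas PSMB10 lies above its controls in MOLM13.

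The 5 inducible genes were lower in most comparisons. After PU.1 knockdown all 5 fell, with a median log2 fold change of -1.01. After PSPC1 knockdown in OCIAML5, 4 of 5 fell with a median of -0.55, and in MOLM13, 3 of 5 fell with a median of -0.31, while PSMB10 rose. The medians of all genes tested lay at 0.02, 0.02 and 0.01 in the PU.1, OCIAML5 PSPC1 and MOLM13 PSPC1 comparisons. In these comparisons 60.4%, 56% and 57% of all genes tested were called, and 30.9%, 28.4% and 29.5% were called lower. The 2 knockdown libraries lay wholly above or below the 2 controls for 95.7%, 67.4% and 84.8% of the 46 proteasome genes in these comparisons, against 78.7%, 75.8% and 75.6% of all genes tested.

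PSMB8 (chromosome 6, 32840717 to 32844703), which replaces PSMB5, had the clearest values of the inducible cutting subunits. It stood at 38.95 and 41.7 CPM after PSPC1 knockdown in MOLM13, against 50.6 and 54.1 CPM, and at 71.9 and 72.0 CPM in OCIAML5, against 96.5 and 115 CPM. After PU.1 knockdown it stood at 55.9 and 54.7 CPM, against 121 and 127 CPM in controls. The groups were separate in all 3 comparisons, with log2 fold changes of -0.37 ± 0.080 in MOLM13, -0.55 ± 0.070 in OCIAML5 and -1.16 ± 0.054 after PU.1 knockdown (SE; adjusted p = 7.78e-05, 2.29e-09 and 9.63e-30). Exons of genes on the opposite strand cover 20.6% of PSMB8, and no source used here gives the strand setting.

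PSMB9 lies beside PSMB8 and replaces PSMB6. It was the lowest of the 5, at 4.88 and 4.69 CPM after PSPC1 knockdown in MOLM13, against 6.17 and 6.39 CPM, and at 9.23 and 9.28 CPM in OCIAML5, against 13.8 and 14.7 CPM. After PU.1 knockdown it stood at 7.87 and 9.15 CPM, against 18.4 and 16.1 CPM. It fell in both OCIAML5 knockdowns, with log2 fold changes of -0.62 ± 0.17 after PSPC1 knockdown and -1.01 ± 0.12 after PU.1 knockdown (SE; adjusted p = 0.0016 and 8.28e-12). The MOLM13 value of -0.39 ± 0.20 (SE; adjusted p = 0.0945) did not pass, although the groups did not overlap.

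PSMB10, which replaces PSMB7, changed differently in the lines after PSPC1 knockdown. It stood at 24.1 and 27.3 CPM after PSPC1 knockdown in MOLM13, against 20.2 and 20.0 CPM, for a log2 change of 0.35 ± 0.12 (SE; adjusted p = 0.00737). Without the second MOLM13 knockdown library the value was 0.25 (adjusted p = 0.154) and the call was lost. In OCIAML5 it stood at 21.0 and 22.9 CPM after PSPC1 knockdown, against 24.2 and 27.1 CPM, a value of -0.23 ± 0.11 (SE; adjusted p = 0.0814) that did not pass. After PU.1 knockdown it stood at 13.1 and 14.5 CPM, against 32.3 and 27.8 CPM, for a log2 change of -1.12 ± 0.093 (SE; adjusted p = 4.2e-17). Between the lines the PSPC1 effect differed by 0.58 ± 0.16 (SE; adjusted p = 0.00387). PSMB10 is among the genes with uncertain counts.

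The PA28 genes PSME1 and PSME2 fell in every knockdown, but not in the same order. PSME1 stood at 73.5 and 71.6 CPM in MOLM13 PSPC1-knockdown libraries, against 90.3 and 83.5 CPM. In OCIAML5 it stood at 92.4 and 97.3 CPM after PSPC1 knockdown, against 132 and 146 CPM, and at 116 and 112 CPM with the PU.1 hairpin, against 146 and 141 CPM. Its log2 fold changes were -0.26 ± 0.064, -0.55 ± 0.060 and -0.33 ± 0.048 (SE; adjusted p = 0.000414, 2.45e-11 and 8.48e-09), the largest fall being that of PSPC1 knockdown in OCIAML5.

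PSME2 stood at 57.2 and 56.9 CPM in MOLM13 PSPC1-knockdown libraries, against 67.8 and 74.4 CPM. In OCIAML5 it stood at 55.3 and 58.0 CPM after PSPC1 knockdown, against 86.2 and 97.8 CPM, and at 50.5 and 49.7 CPM with the PU.1 hairpin, against 97.3 and 98.1 CPM. Its log2 fold changes were -0.31 ± 0.072, -0.70 ± 0.070 and -0.96 ± 0.057 (SE; adjusted p = 0.00021, 2.81e-12 and 2.3e-24). For PSME1 the PU.1 effect minus the PSPC1 effect in OCIAML5 was 0.24 ± 0.077 (SE; adjusted p = 0.00969), and for PSME2 it was -0.25 ± 0.091 (SE; adjusted p = 0.021). Both calls were lost under other settings, for PSME1 without a low-count filter (adjusted p = 0.149) or without the second PSPC1-experiment control (0.0871) or first PSPC1-knockdown library (0.0601). That of PSME2 was lost with DESeq2 (adjusted p = 0.0598) and when any 1 of 5 libraries was left out, up to 0.262 without the first PSPC1-experiment control.

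Each inducible cutting subunit was also set against the constitutive subunit it replaces, within a library and per length. The ratio of PSMB8 to PSMB5 was 0.330 and 0.348 in MOLM13 PSPC1-knockdown libraries, against 0.765 and 0.828 in controls. In OCIAML5 it was 0.541 and 0.512 after PSPC1 knockdown, against 2.15 and 2.07, and 0.377 and 0.358 after PU.1 knockdown, against 1.53 and 1.57. PSMB8 thus exceeded PSMB5 in all 4 OCIAML5 controls and in none of the 4 OCIAML5 knockdown libraries. The opposite moves of the 2 genes both enter this ratio.

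The other pairs shifted less evenly. On the CPM scale the ratio of PSMB9 to PSMB6 averaged 0.075 ± 0.0056 after PSPC1 knockdown in MOLM13, against 0.0996 ± 0.0016 in controls, and 0.118 ± 0.0020 in OCIAML5, against 0.189 ± 0.014 (SD, n = 2 each). The ratio of PSMB10 to PSMB7 averaged 0.255 ± 0.025 after PSPC1 knockdown in MOLM13, against 0.186 ± 0.011, and 0.112 ± 0.0094 after PU.1 knockdown, against 0.229 ± 0.028 (SD, n = 2 each). The uncertain count of PSMB10 enters this ratio. The summed CPM of the 3 inducible cutting subunits over that of the 3 constitutive ones changed by -0.31 on the log2 scale in MOLM13, by -0.81 in OCIAML5 and by -1.17 after PU.1 knockdown. Per length the first 2 values were -0.23 and -0.76.

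**Figure D3:**
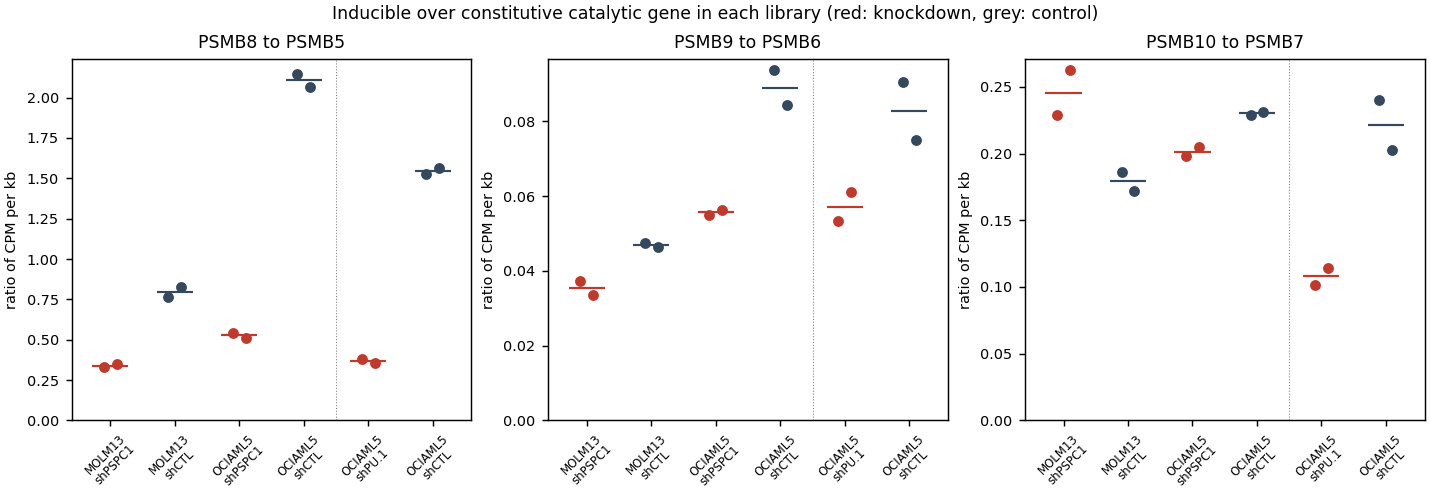
Ratio of each inducible cutting subunit to the constitutive one it replaces, from CPM per kb, in each library (points; the line is the mean of 2; knockdown red, control grey; linear axes from 0). The PSMB8 to PSMB5 ratio is 0.330 to 0.541 in the 6 knockdown libraries and 0.765 to 2.15 in the 6 controls.

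Promoters of the inducible genes share a letter pattern that is shown here because 4 of these 5 genes carry it. Windows from 250 bases before to 50 bases after the start were taken from RefSeq on GRCh38.p14, and 42 of the 48 genes had one. The pattern GAAA, any 2 bases and GAAA again, the core of the element that interferon-activated factors bind, was searched on both strands. It stood in the windows of PSMB8, PSMB10, PSME1 and PSME2 and in none of PSMB9. Among the 42 proteasome genes 7 held it (16.7%), against 4.4% of 27305 genes with a window. The match and 10 bases on each side are given below on the strand of the gene, 5′ to 3′, with the match in capitals; TTTCGCTTTC is the same pattern on the opposite strand.
PSMB8 (chr6:32844032-32844061, minus strand): gatctgtggcTTTCGCTTTCacttcctcct
PSMB10 (chr16:67936852-67936881, minus strand): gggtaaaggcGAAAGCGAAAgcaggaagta
PSME1 (chr14:24136189-24136218, plus strand): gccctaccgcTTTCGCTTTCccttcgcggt
PSME2 (chr14:24146619-24146648, minus strand): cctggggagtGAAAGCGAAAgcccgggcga
PSMG4 (chr6:3258904-3258933, plus strand): ttccggggccGAAAGCGAAAgcgcgctcgg

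The letters GAAAGCGAAA, on one strand or the other, are identical in all 5 of these genes, including the chaperone gene PSMG4. PSMG4 fell in MOLM13 and after PU.1 knockdown, with log2 fold changes of -0.26 ± 0.11 and -0.32 ± 0.086 (SE; adjusted p = 0.0355 and 0.000947). The MOLM13 call was lost under 7 of 11 alternatives, among them without either knockdown library (adjusted p = 0.117 and 0.0779) and without the first control (0.213), and the PU.1 call with library size alone (0.088). Its value after PSPC1 knockdown in OCIAML5 was 0.03 ± 0.11 (SE). The windows of PSMB4 and PSMA4 hold other forms of the pattern. A match describes letters in a window and is not a measured binding site. CCAAT was found in 47.6% of the proteasome genes with a window and in 39.7% of all genes. TGACNNNGC stood in 35.7% against 16.1%, and TTCNNNGAA in 19% against 9.4%. TTCNNNGAA and the interferon pattern can share the letters GAA.

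Genes of interferon signalling and antigen presentation did not share the direction of the inducible proteasome genes after PSPC1 knockdown. In the list of 9, 6 rose and 1 fell in MOLM13, 5 rose and 3 fell in OCIAML5, and 2 rose and 5 fell after PU.1 knockdown. Of all genes tested, 27.6%, 27.5% and 29.6% were called higher and 29.5%, 28.4% and 30.9% lower in these comparisons. In this list, exons of another same-strand gene cover 88.9% of the coding bases of IRF9 and 90.6% of TAP2, so their counts are uncertain too. B2M, the light chain of class I molecules, had log2 fold changes of 0.35 ± 0.042 and 0.47 ± 0.042 after PSPC1 knockdown in MOLM13 and OCIAML5 and -0.37 ± 0.038 after PU.1 knockdown (SE). The values of 3 further genes were singled out after they were seen. TAP1, the peptide transporter gene next to PSMB9, changed by 0.57 ± 0.096 and 0.48 ± 0.089 after PSPC1 knockdown in MOLM13 and OCIAML5 and by -0.12 ± 0.066 after PU.1 knockdown (SE; the last did not pass). NLRC5, an activator of class I genes, fell in all 3, with -1.03 ± 0.12, -0.89 ± 0.13 and -0.68 ± 0.094 (SE). IRF1, a factor that binds the interferon element, had -0.18 ± 0.14, -0.49 ± 0.12 and -0.72 ± 0.069 (SE), of which the OCIAML5 values passed. Exons on the opposite strand cover 59.5% of the IRF1 coding bases. No source used here gives the strand setting, so its counts are uncertain as well.

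In the constitutive core and the regulatory particle, PU.1 knockdown gave the most one-sided calls, with 25 of 31 genes lower and 1 higher. The SD of these 31 changes on the log2 scale was 0.354, against 0.301 and 0.329 after PSPC1 knockdown in MOLM13 and OCIAML5. Single genes weigh on these SDs, such as PSMB5 (0.91) and PSMC3 (-1.29) after PU.1 knockdown. After PSPC1 knockdown PSMB5 had 0.85 and 1.45 in the 2 lines. SDs without these genes were not computed. Of 46 proteasome genes, 36 fell and 2 rose after PU.1 knockdown, with a median log2 fold change of -0.36. Among all genes tested, 30.9% were called lower and 29.6% higher. The falls covered 11 of 14 core genes (median -0.38) and 14 of 17 regulatory particle genes (median -0.39), including all 6 ATPases. Among these ATPases, PSMC1 has the 75.8% opposite-strand overlap given above. All 3 other caps fell, with log2 fold changes of -0.41 for PSME3, the nuclear PA28 subunit, -0.23 for PSME4, the PA200 activator, and -0.28 for PSMF1, an inhibitor. The PSMC1 call was lost without the second knockdown library (adjusted p = 0.0578), and those of PSMC1 and PSME4 with library size alone. The summed level of all proteasome genes stood at 4345 and 4361 CPM after PU.1 knockdown, against 5719 and 5678 CPM in controls. With scaling by library size alone, which raised the median change of all genes by 0.15, 28 proteasome genes were called lower and 5 higher, and the core median was -0.23. Under that scaling 6583 of all genes were called higher and 3995 lower, against 4983 and 5206 with the main scaling.

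PSMC3, an ATPase of the base, changed most after PU.1 knockdown. It stood at 74.6 and 72.5 CPM, against 183 and 177 CPM in controls, for a log2 change of -1.29 ± 0.049 (SE; adjusted p = 1.27e-34). The other ATPases had log2 fold changes between -0.63 for PSMC2 and -0.20 for PSMC1. After PSPC1 knockdown PSMC3 fell too, with log2 fold changes of -0.48 ± 0.058 in MOLM13 and -0.14 ± 0.055 in OCIAML5 (SE; adjusted p = 6.91e-10 and 0.0274). In OCIAML5 the PU.1 effect minus the PSPC1 effect was -1.14 ± 0.075 (SE; adjusted p = 2.23e-17). In the genome PSMC3 (chromosome 11, 47418769 to 47426473) lies 40192 bases from SPI1 (47354860 to 47378576), the gene of PU.1, and SLC39A13 is the protein-coding gene between them. SLC39A13, a zinc transporter gene, stood at 24.9 and 26.9 CPM after PU.1 knockdown, against 27.8 and 25.7 CPM in controls, with overlapping groups and a log2 fold change of -0.04 ± 0.083 (SE).

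Some subunits departed from the fall. PSMD14, the deubiquitinase of the regulatory particle, had 102 and 103 CPM after PU.1 knockdown, against 96.8 and 96.7 CPM, for a log2 change of 0.08 ± 0.051 (SE; adjusted p = 0.164). PSMD4, a ubiquitin receptor, had a value of 0.05 ± 0.045 and PSMD6 one of -0.10 ± 0.049 (SE), which did not pass either. PSMA6 had 6.64 and 7.95 CPM after PU.1 knockdown, against 12.3 and 12.2 CPM, for a log2 change of -0.74 ± 0.13 (SE; adjusted p = 9.84e-07), and is among the genes with uncertain counts.

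After PSPC1 knockdown the proteasome genes differed between the lines. In MOLM13, 22 of 46 fell and 6 rose, with a median log2 fold change of -0.17. In OCIAML5, 10 fell and 11 rose, with a median of -0.03. For all genes tested the shares were 29.5% lower and 27.6% higher in MOLM13, and 28.4% lower and 27.5% higher in OCIAML5, so the share called in OCIAML5 (45.7% of the proteasome genes) was under that of all genes (56%). With scaling by library size alone the OCIAML5 counts were 5 lower and 13 higher. Leaving out 1 OCIAML5 library at a time gave 7 to 14 lower and 7 to 11 higher. The summed level was 3789 and 3811 CPM in MOLM13 knockdown libraries, against 4285 and 4284 CPM. In OCIAML5 it was 4551 and 4567 CPM, against 4360 and 4684 CPM in controls that lay on both sides of the knockdown.

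In MOLM13, 7 of 17 regulatory particle genes fell and 2 rose. PSMD14 stood at 50.9 and 51.4 CPM after knockdown, against 80.6 and 81.3 CPM, for a log2 change of -0.66 ± 0.069 (SE; adjusted p = 7.41e-12). In the core 6 of 14 fell, among them PSMA4 at 110 and 110 CPM, against 164 and 160 CPM in controls. PSMB4 rose in both lines, with log2 fold changes of 0.28 ± 0.050 in MOLM13 and 0.32 ± 0.047 in OCIAML5, and fell after PU.1 knockdown, with -0.20 ± 0.042 (SE), a call lost with library size alone. In OCIAML5 the regulatory particle had 5 rises and 3 falls, all between -0.15 and 0.37 on the log2 scale. PSMD6 rose most there, to 114 and 114 CPM after knockdown, against 86.8 and 89.8 CPM.

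**Figure D4:**
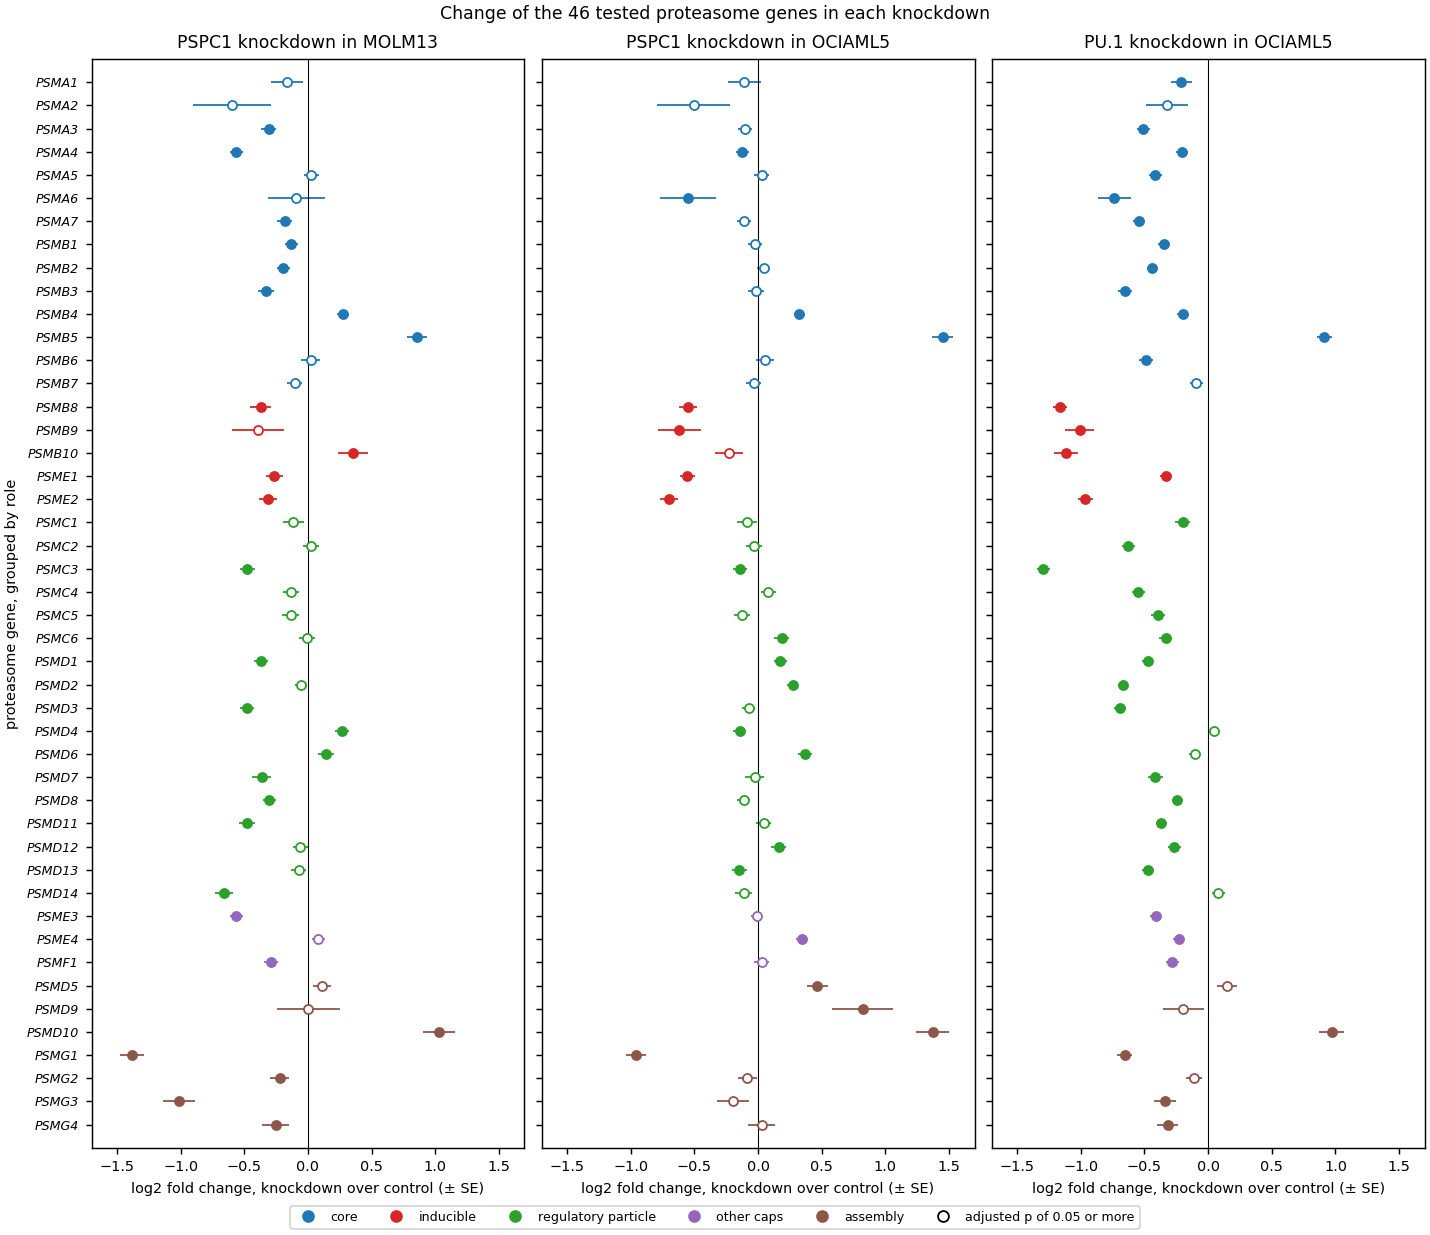
Log2 fold change (knockdown over control, ± SE) of the 46 tested proteasome genes in the 3 knockdowns, grouped by role; filled points have an adjusted p under 0.05. After PU.1 knockdown 36 points lie significantly below 0, and PSMB5 and PSMD10 stand above 0 in each panel.

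The difference of the PSPC1 effect, MOLM13 minus OCIAML5, passed the test for 26 of 46 proteasome genes, 22 lower and 4 higher, where 30.5% of all genes passed, 18% lower and 12.5% higher. Among the non-ATPase subunits of the regulatory particle, 9 of 11 were lower in MOLM13 and PSMD4 was higher. PSMD1, a scaffold of the base, stood at 123 and 124 CPM after knockdown in MOLM13, against 160 and 157 CPM, and at 175 and 177 CPM in OCIAML5, against 146 and 166 CPM. It fell in MOLM13 (-0.37 ± 0.054) and rose in OCIAML5 (0.18 ± 0.052), a difference of -0.54 ± 0.075 (SE; adjusted p = 8.29e-08). PSMD4 moved the other way, at 116 and 119 CPM in MOLM13 knockdown libraries, against 99.6 and 95.3 CPM, and 170 and 161 CPM in OCIAML5 ones, against 175 and 191 CPM, a difference of 0.41 ± 0.076 (SE; adjusted p = 2.42e-05). In OCIAML5 alone, the PSMD1 call was lost without the first control (adjusted p = 0.269), and the PSMD4 call without the second control (0.193) or second knockdown library (0.171) and with library size alone (0.317). PSMG3 had the largest difference, -0.82 ± 0.18 (SE; adjusted p = 0.000269). Of the inducible genes, PSMB10, PSME1 and PSME2 were among the 4 higher. The rise of PSMB5 was smaller in MOLM13, with a difference of -0.60 ± 0.12 (SE; adjusted p = 4.48e-05), and that of PSMD10 did not pass.

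**Figure D5:**
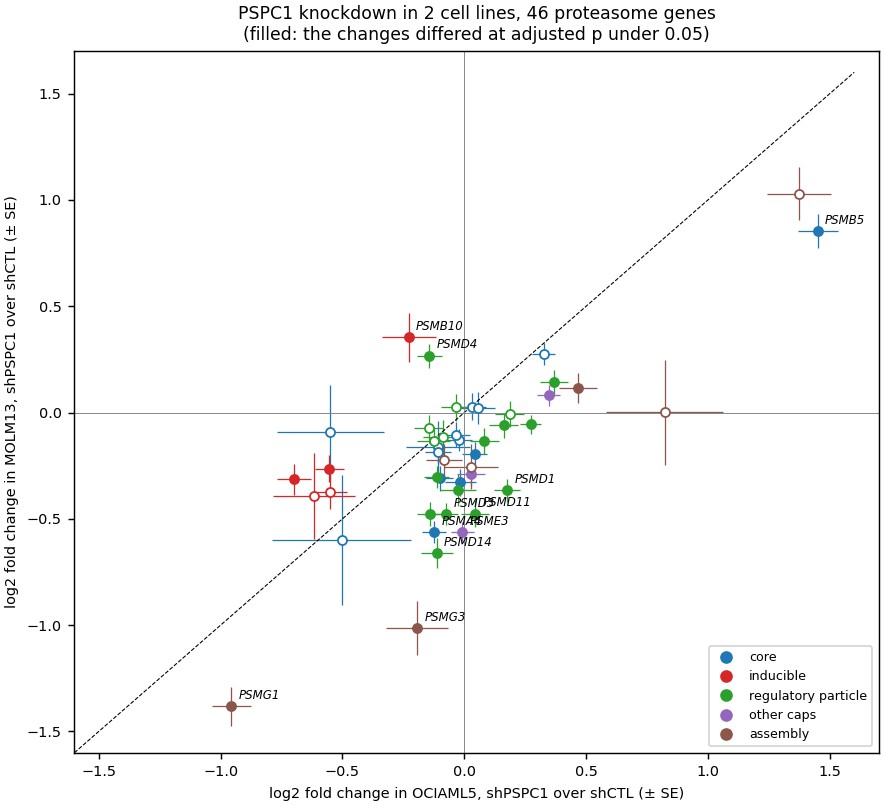
Log2 fold change after PSPC1 knockdown in MOLM13 (vertical axis) and OCIAML5 (horizontal axis) for the 46 tested proteasome genes, ± SE; the dashed line marks equal change and filled points are the 26 genes whose changes differed at adjusted p under 0.05. Of these, 22 lie below the line, and PSMB10, PSMD4, PSME1 and PSME2 lie above it.

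In OCIAML5 the PU.1 effect minus the PSPC1 effect passed for 36 proteasome genes, 32 lower and 4 higher, where 45.6% of all genes passed, 22.9% lower and 22.8% higher. The differences came from joined libraries of the 2 experiments, each with its own controls. The 4 higher genes were PSMD14, PSMD4, PSME1 and PSMG1, at 0.21 to 0.32 on the log2 scale. All 4 calls were lost without the second PSPC1-experiment control, with adjusted p of 0.161, 0.0851, 0.0871 and 0.108. The rise of PSMB5 was smaller after PU.1 knockdown, with a difference of -0.52 ± 0.10 (SE; adjusted p = 3.82e-05). For PSMD2, a scaffold of the base, the difference was -0.92 ± 0.063 (SE; adjusted p = 6.71e-17).

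Without knockdown, the inducible genes had the largest median difference of the classes between MOLM13 and OCIAML5 controls. All 5 were lower in MOLM13, with log2 differences of -1.18 to -0.35 and a median of -0.68. Single genes of other classes went past this median, down to -0.91 in the regulatory particle and -0.84 in the core. In all, 26 of 46 proteasome genes passed, 15 lower and 11 higher, against 60.6% of all genes, 30.7% lower and 30% higher. The groups did not overlap for 65.2% of the proteasome genes and 78.8% of all genes. PSMB8 stood at 50.6 and 54.1 CPM in MOLM13, against 96.5 and 115 CPM in OCIAML5, a log2 difference of -1.01 ± 0.073 (SE; adjusted p = 2.53e-17), and PSMB9 differed by -1.18 ± 0.18 (SE; adjusted p = 1.12e-07). For PSMB10 the difference of -0.35 ± 0.11 (SE; adjusted p = 0.00698) was -0.27 (adjusted p = 0.098) without the second OCIAML5 control. Of the 7 assembly genes 5 were higher in MOLM13, led by PSMD5 at 74.1 and 69.5 CPM, against 33.3 and 32.8 CPM, a log2 difference of 1.12 ± 0.077 (SE; adjusted p = 4.34e-18). OCIAML5 alone was grown with GM-CSF, so line and medium cannot be told apart.

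Proteins that work with the proteasome but carry other symbols were also listed. Of 10 such partners, 5 fell and 1 rose in MOLM13, 4 fell and 2 rose in OCIAML5 after PSPC1 knockdown, and 8 fell and 1 rose after PU.1 knockdown. That is 60%, 60% and 90% called, against 57%, 56% and 60.4% of all genes tested, so the PSPC1 shares lie near the background. UCHL5 and USP14, deubiquitinases bound to the regulatory particle, fell in all 3. UCHL5 stood at 62.2 and 64.5 CPM after PSPC1 knockdown in MOLM13, against 132 and 124 CPM, for a log2 change of -1.01 ± 0.061 (SE; adjusted p = 5.32e-20). In OCIAML5 its log2 fold changes were -0.78 ± 0.058 after PSPC1 knockdown and -0.57 ± 0.051 after PU.1 knockdown (SE).

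NFE2L1, the transcription factor that raises proteasome genes when the protease is inhibited, was listed with 3 genes that activate it. It rose in all 3 knockdowns, with log2 fold changes of 0.20 ± 0.052, 0.28 ± 0.051 and 0.28 ± 0.046 (SE; adjusted p = 0.000705, 5.77e-06 and 2.1e-07). DDI2, the protease that cleaves it, fell after PSPC1 knockdown, with log2 fold changes of -0.79 ± 0.067 in MOLM13 and -0.70 ± 0.066 in OCIAML5 (SE), and had 0.11 ± 0.050 after PU.1 knockdown, which did not pass. VCP, which extracts it from membranes, fell in MOLM13 and after PU.1 knockdown and rose after PSPC1 knockdown in OCIAML5.

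The list of 12 genes for ubiquitin and its delivery had 4 rises and 4 falls in MOLM13, 6 rises and 4 falls in OCIAML5 and, after PU.1 knockdown, 1 rise and 8 falls. These are 66.7%, 83.3% and 75% of the list, beside the 57%, 56% and 60.4% of all genes called. Some library-wide values moved with the groups. The share of counts from mitochondrial genes was 12.4% in both MOLM13 knockdown libraries, against 9.32% and 9.86% in controls. It was 14.3% in both OCIAML5 PSPC1-knockdown libraries, against 12.03% and 10.8%. With the PU.1 hairpin it was 10.6% and 9.84%, against 9.95% and 10.0%, so these groups overlapped. The summed myeloid markers were 290 and 295 CPM after PSPC1 knockdown in OCIAML5, against 526 and 546 CPM, and 343 and 339 CPM after PU.1 knockdown, against 440 and 424 CPM. Their part in the proteasome results was not tested. Rows of proteasome pseudogenes summed to 1.63 to 3.15 CPM in every library.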

How the data were processed

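RNA was measured by poly(A) sequencing with a stranded kit in 12 libraries, 6 groups of 2 per the labels. The authors deposited raw counts, 1 table of 8 libraries and 1 of 4, with 60648 genes each. The submitters' processing notes name the build GRCh38 and, without roles, HTSeq 2.0.2, DESeq2 1.36.0, STAR 2.7.10a and Trim Galore 0.6.7. No source used here gives the annotation release or strand setting.

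Counts were tested in R 4.3.3 with edgeR 4.0.16 (filterByExpr, TMM, glmQLFit and quasi-likelihood F tests) and Benjamini-Hochberg adjustment over all genes of a fit, at a threshold of 0.05. The PSPC1 fit had 16457 genes and 4 residual degrees of freedom, the PU.1 fit 16861 and 2, and the joined OCIAML5 fit 17159 and 4. Library totals were 15.4 to 39.7 M counts. Per-length levels used the union of exons in GENCODE annotation on GRCh38. The fits were also run on simulated data in which every gene had the same spread. That setting is simpler than these data, so no conclusion about the calls is drawn from it. Libraries of a group differed by 2.61 to 4.96 times counting noise, so none is a copy of its partner. Such a spread cannot tell separate cultures from repeat preparations of the same RNA.

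The proteasome genes, classes and partner lists were chosen with earlier results of these data known. Full values are given for the 5 inducible and 3 constitutive cutting subunits and the 3 largest changes each way among called genes per knockdown, and list genes are named by highest mean CPM, up to 4 per list. Other genes were named after their values were seen. Alternatives included library size alone, RLE size factors, DESeq2 1.42.0, other filters, an adjusted p of 0.01, a replicate block and leaving out each library. Matplotlib 3.10.9 drew the plots. Protein levels and isoforms were not analysed here. Values of 2 list genes are not reported here.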

Additional observations from a re-analysis of the deposited data

Results flagged for a closer look

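For 26 proteasome genes the PSPC1 effect differed between MOLM13 and OCIAML5 in the test of the difference itself, which 30.5% of all genes tested passed. All values here are log2 differences, MOLM13 minus OCIAML5, from edgeR's quasi-likelihood test with 2 libraries in each of 4 groups.

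Among core genes the differences were -0.21 for PSMA3, -0.44 for PSMA4, -0.24 for PSMB2, -0.31 for PSMB3 and -0.60 for PSMB5. PSMB5 rose in both lines, by less in MOLM13, whereas PSMA4 fell in both, by more in MOLM13.

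Among regulatory particle ATPases they were -0.34 for PSMC3 and -0.21 for PSMC4. Non-ATPase subunits gave -0.54 for PSMD1, -0.33 for PSMD2, -0.40 for PSMD3, 0.41 for PSMD4, -0.23 for PSMD6, -0.34 for PSMD7, -0.19 for PSMD8, -0.52 for PSMD11, -0.22 for PSMD12 and -0.55 for PSMD14. PSMD1 and PSMD4 are the 2 genes called in opposite directions in the 2 lines, although their OCIAML5 calls were lost under 1 and 3 of 11 alternatives.

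Of the inducible genes, PSMB10 differed by 0.58, PSME1 by 0.29 and PSME2 by 0.38. The other caps gave -0.56 for PSME3, -0.26 for PSME4 and -0.32 for PSMF1. For the chaperones the values were -0.35 for PSMD5, -0.43 for PSMG1 and -0.82 for PSMG3.

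Of the 26 calls, 15 were kept under all 14 alternatives. The other 11 (PSMA3, PSMB2, PSMB3, PSMC4, PSMD12, PSMD5, PSMD6, PSMD7, PSMD8, PSME1 and PSMG1) were lost under at least 1 of them. None of the 26 turned its sign under these alternatives.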

How the results depend on the processing

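With 2 libraries a group and relative levels, small changes depend on the scaling. Of 339 recomputed values of the 30 main results, 305 stayed within the margin used for a change (1.5 times for a count, the replicate spread for a median). The OCIAML5 core median after PSPC1 knockdown, -0.03 with the main scaling, lay on either side of 0, and that of the regulatory particle (-0.03) became 0.049 with library size alone. With library size alone the medians were -0.10 for the core and -0.085 for the regulatory particle in MOLM13, 0.054 for the core in OCIAML5 after PSPC1 knockdown, where 5 genes were called lower, and -0.23, -0.24 and -0.86 for core, regulatory particle and inducible genes after PU.1 knockdown, where 5 were called higher. A filter of 1 CPM in 2 libraries gave -0.35, -0.36 and -0.98 for these PU.1 medians and 4 higher. DESeq2 called 6 lower in OCIAML5 after PSPC1 knockdown and an adjusted p of 0.01 left 5. For the PU.1 minus PSPC1 effect that threshold left 2 of 4 higher genes and the fit without a low-count filter 0. Per length the inducible to constitutive ratio changed by -0.23 in MOLM13 and by -0.76 in OCIAML5.

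Leaving out each library gave core medians of -0.20 to -0.14 and regulatory particle medians of -0.19 to -0.13 in MOLM13, and a core median of -0.11 to 0.039 in OCIAML5 with 7 to 11 genes higher. After PU.1 knockdown the ranges were -0.43 to -0.39 for both core and regulatory particle and -1.14 to -0.99 for inducible genes. The PU.1 minus PSPC1 effect kept 0 to 4 higher genes. The cause of these moves was not tested.

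Same-numbered libraries did not deviate together (correlations of 0.00494 to 0.0157), so the numbers do not pair them. With the number as a replicate block, 22 genes were lower and 6 higher in MOLM13, 10 and 11 in OCIAML5, and 36 and 2 after PU.1 knockdown. Among called proteasome genes, 22 of 28, 12 of 21 and 30 of 38 calls were kept in MOLM13, OCIAML5 and the PU.1 experiment under all alternatives. In OCIAML5 the calls of PSMA4, PSMC3, PSMD1 and PSMD4 were among the 9 lost.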
